A study of Mus musculus with 18 samples.

Results

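The enzymes that break down the branched-chain amino acids (BCAAs), leucine, isoleucine and valine, were followed through 10 genes of the 21899 listed in the expression table. The genes were chosen by name and by their known role in the pathway and not by a rule on their measured values, though earlier results of these data were known. Each gene was found once in the table. They were Bcat2, Bckdha, Bckdhb, Dbt, Bckdk, Ppm1k, Ivd, Mccc1, Mccc2 and Hibadh. All 10 passed the filter on low values in every comparison.

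RNA was sequenced from liver, epididymal white adipose tissue (eWAT) and quadriceps muscle of wild-type male C57BL/6 mice aged 18 weeks. Mice of the high-salt diet group (HSD) had received chow with 8% NaCl and 0.9% saline to drink for 12 weeks, and control mice (CON) chow and tap water. Each tissue and diet gave 3 libraries, 18 in all, prepared from total RNA with a stranded kit. A library is named here by diet, mouse number and tissue (L, liver; W, eWAT; M, muscle), so that CON16L, CON16W and CON16M carry the number of 1 mouse. Both diets were compared in whole tissue, where fewer cells of a type and less RNA per cell cannot be told apart.

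BCAA breakdown starts largely outside the liver: BCAT2, the mitochondrial aminotransferase, removes the amino group and yields branched-chain keto acids. These are oxidised by the branched-chain keto acid dehydrogenase complex (BCKDH), built from an E1 component with α and β subunits (Bckdha, Bckdhb), the E2 core (Dbt) and an E3 component shared with other complexes. The kinase BCKDK phosphorylates the E1α subunit and shuts the complex off, and the phosphatase PPM1K (PP2Cm) removes that phosphate and turns it on. Beyond BCKDH each amino acid has its own branch: isovaleryl-CoA dehydrogenase (Ivd) and both subunits of methylcrotonyl-CoA carboxylase (Mccc1, Mccc2) act on leucine, and 3-hydroxyisobutyrate dehydrogenase (Hibadh) acts on valine. Liver is known for low BCAT2 and an active BCKDH complex, and adipose tissue and muscle for taking up and transaminating BCAAs.

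The libraries held about 7628070 to 16637500 fragments as recovered from the deposited FPKM (fragments per kilobase of exon, divided by the depth of the library), and a member was covered by 28 fragments (Bckdha in CON14L) to 5745 fragments (Ivd in CON72W). The tissues carried their own defining markers, and some libraries stood apart. Mitochondrially encoded genes took 15.4% to 60.9% of the fragments in liver, against 3.53% to 5.12% in eWAT and 11.3% to 16.5% in muscle. In CON16L the 10 skeletal muscle markers summed to 4734 FPKM, against 2.54 to 6.90 in the other liver libraries, which is 7.03% of the CON muscle mean. In HS3W the 12 epididymal epithelium markers summed to 20681 FPKM, against 1.27 to 11.4 in the other eWAT libraries, and the 10 adipocyte markers to 7515 FPKM, 31.7% of the mean of HS2W and HS5W. In eWAT the hepatocyte markers summed to 159 to 461 FPKM in CON and 10.1 to 21.8 in HSD, the male germ cell markers to 0.255 to 56.1 in CON and 39.8 to 641 in HSD, and the macrophage markers to 593 to 881 in CON and 264 to 568 in HSD.

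The kinase and the phosphatase act on the same site of BCKDH and were ordered differently over the tissues, so the 250 bases before the start site of each are shown, as RefSeq gives them on build GRCm38.p6. The sequences run 5′ to 3′ on the strand of the gene, in lower case. Capitals mark a TATA box, a CCAAT box or a GC box, read on either strand, so that the reverse complement of each motif is also in capitals. The TATA box searched was TATAAA. The CCAAT box was the letters of its name. The GC box searched was GGGCGG, and none of the matches shown overlap.
Bckdk, chr7:127903823-127904072, plus strand: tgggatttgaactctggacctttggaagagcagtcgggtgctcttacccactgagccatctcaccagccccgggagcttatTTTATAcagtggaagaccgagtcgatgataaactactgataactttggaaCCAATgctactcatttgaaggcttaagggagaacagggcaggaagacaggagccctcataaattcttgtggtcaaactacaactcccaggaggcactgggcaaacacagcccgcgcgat
Ppm1k, chr6:57535488-57535737, minus strand: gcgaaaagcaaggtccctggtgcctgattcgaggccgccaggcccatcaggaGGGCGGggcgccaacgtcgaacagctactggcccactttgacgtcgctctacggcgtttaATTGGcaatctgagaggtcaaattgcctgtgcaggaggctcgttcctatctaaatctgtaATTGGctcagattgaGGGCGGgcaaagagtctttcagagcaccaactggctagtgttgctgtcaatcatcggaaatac
The Bckdk window held 1 TATA box and 1 CCAAT box and no GC box, at 50% GC. The Ppm1k window held 2 GC boxes and 2 CCAAT boxes and no TATA box, at 54.4% GC, beside a median of 52.4% over all 32851 mouse promoters in the table. RefSeq gave 11 such windows for 9 of the 10 genes, the gene without one being Dbt. A GC box was found in 4 of the 11 windows and in 32.7% of all promoters, a CCAAT box in 7 and in 33.8%, and a TATA box in 1 and in 12.4%. The element AAGGTCA, which oestrogen-related receptors are known to read, was in 0 of the 11 and in 4.08% of all promoters. These matches describe the letters in the window and were not tied to binding of a factor.

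Bcat2 (ENSMUSG00000030826, chr7:45570153-45589711 on GRCm38), the first step, was read at its highest in eWAT. The CON libraries gave 52.3 FPKM (CON16W), 45.3 (CON71W) and 46.7 (CON72W) in eWAT. In muscle they gave 14.4 (CON16M), 14.3 (CON71M) and 13.8 (CON72M). In liver they gave 11.5 (CON14L), 12.3 (CON16L) and 10.6 (CON72L), so that the tissues did not overlap. The mean in eWAT of 48.1 ± 3.71 FPKM (SD, n = 3) was 4.20-fold that of liver and 3.40-fold that of muscle.

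Differences between tissues were tested with limma on log2(FPKM + 0.5) over the 9 CON libraries, and a gene was called at an adjusted p under 0.05 and a fold of at least 2. On this scale Bcat2 was higher in eWAT than in liver by 2.02 ± 0.15 (SE; adjusted p = 1.75e-06) and higher than in muscle by 1.73 ± 0.15 (adjusted p = 8.33e-06). Muscle and liver differed by 0.29 ± 0.15 (adjusted p = 0.104). FPKM divides all genes by 1 total, and the median gene was itself higher in eWAT than in liver by 1.36, in eWAT than in muscle by 0.93 and in muscle than in liver by 0.52. Most differences are therefore also given after median-ratio scaling, which sets the median gene near 0. Bcat2 then stood higher in eWAT than in liver by 0.40 ± 0.14 (adjusted p = 0.0289) and than in muscle by 0.72 ± 0.14 (adjusted p = 0.00161), both under 2-fold, and lower in muscle than in liver at a log2 difference of -0.32 ± 0.14 (adjusted p = 0.0575).

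**Figure D1:**
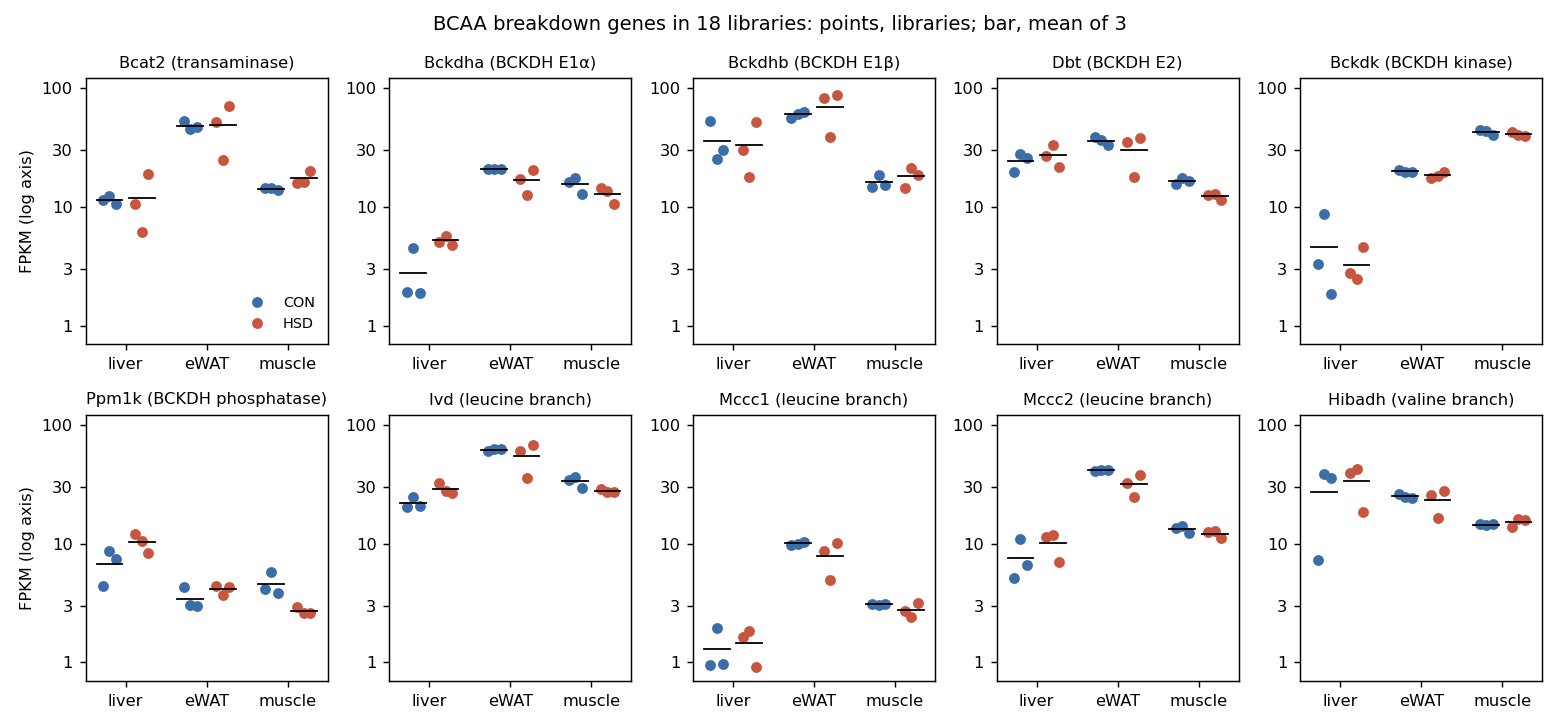
FPKM (log axis) of the 10 BCAA breakdown genes in liver, eWAT and muscle, with a point for each library (CON blue, HSD red, 3 each) and a bar at the mean of 3. The mean of Bckdk ran from 4.61 in liver through 19.8 in eWAT to 42.5 in muscle under CON, while Ppm1k had its highest mean, 6.78, in liver.

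The subunits of the BCKDH core did not share 1 tissue pattern. Bckdha (ENSMUSG00000060376, chr7:25629946-25658981), which encodes the regulated E1α subunit, was read in CON liver at 1.93 FPKM (CON14L), 4.53 (CON16L) and 1.90 (CON72L). The CON libraries of muscle gave 16.1, 17.6 and 12.8 FPKM and those of eWAT 20.8, 21.0 and 20.7. Liver was thus below both other tissues in every library, by a mean of 2.36 ± 0.28 on the log2 scale against muscle (adjusted p = 6.11e-05) and of 2.79 ± 0.28 against eWAT (adjusted p = 1.17e-05). After median-ratio scaling the differences were 1.83 ± 0.24 (adjusted p = 0.000156) and 1.26 ± 0.24 (adjusted p = 0.00164), and both were still called.

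Bckdhb (ENSMUSG00000032263, chr9:83925145-84124240), the E1β subunit that pairs with E1α, was read in CON liver at 52.8 FPKM (CON14L), 25.2 (CON16L) and 29.9 (CON72L). Muscle lay lower in every CON library, at 14.8, 18.6 and 15.3 FPKM, and eWAT highest, at 55.7, 60.9 and 63.0. Muscle was called lower than liver, at a log2 difference of -1.06 ± 0.27 (adjusted p = 0.00635), and eWAT higher than muscle, by 1.86 ± 0.27 (adjusted p = 0.000213). After median-ratio scaling the first was -1.69 ± 0.30 (adjusted p = 0.0009) and still called. The second was 0.85 ± 0.30 (adjusted p = 0.0353), under 2-fold. The difference between eWAT and liver of 0.80 ± 0.27 (adjusted p = 0.0208) turned to -0.84 ± 0.30 (adjusted p = 0.0349) after median-ratio scaling, so its direction depended on the scale.

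Dbt (ENSMUSG00000000340, chr3:116513070-116549981) encodes the E2 core that carries the acyl group. Its CON levels were 19.7 (CON14L), 27.7 (CON16L) and 25.9 (CON72L) FPKM in liver. In eWAT they were 38.7, 36.6 and 32.9, and in muscle 15.7, 17.6 and 16.5, with no overlap between tissues. It was called higher in eWAT than in muscle by 1.10 ± 0.18 (adjusted p = 0.000466), a difference that was 0.09 ± 0.16 after median-ratio scaling. In muscle it was lower than in liver at a log2 difference of -0.53 ± 0.18 (adjusted p = 0.0256), under 2-fold as deposited, and at a log2 difference of -1.16 ± 0.16 (adjusted p = 0.000161) after scaling.

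The 3 subunits can be set against each other within a library, where scaling cancels. FPKM divides by exon length, here the union of exons of 1899 bases for Bckdha, 1805 for Bckdhb and 3348 for Dbt. In the CON muscle libraries the FPKM of Bckdhb over that of Bckdha was 0.920 to 1.20 and that of Dbt over Bckdha 0.973 to 1.30, so that the 3 transcripts were read at about equal levels. In CON eWAT the ratios were 2.68 to 3.05 and 1.59 to 1.86. In CON liver they were 5.55 to 27.3 and 6.11 to 13.6, with the lowest of both in CON16L, the library with skeletal muscle RNA. The HSD liver libraries gave 3.08 to 10.7 for Bckdhb over Bckdha and 4.54 to 5.74 for Dbt over Bckdha. The order of tissues was thus the same in every library for both ratios: muscle lowest, eWAT between and liver highest, except that Bckdhb over Bckdha in HS4L, at 3.08, lay within the range of the eWAT libraries, 2.68 to 4.78.

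**Figure D2:**
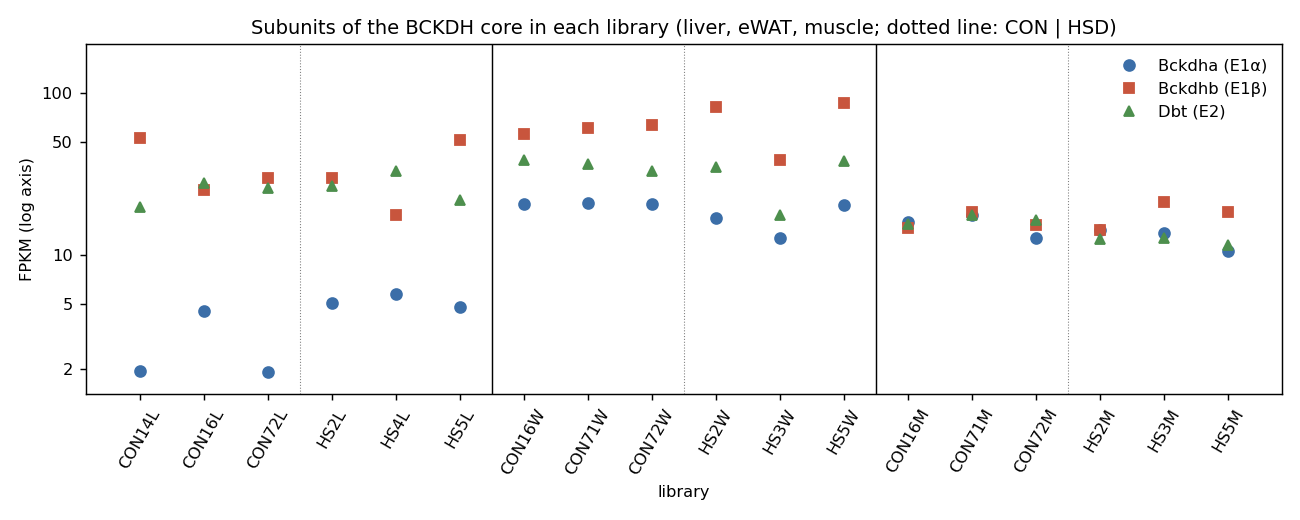
FPKM (log axis) of Bckdha (blue circles), Bckdhb (red squares) and Dbt (green triangles) in each of the 18 libraries, in the order liver, eWAT and muscle, with CON left and HSD right of each dotted line. The 3 symbols lie close together in muscle, at 10.7 to 21.2 FPKM, and Bckdha lies below the others in liver, at 1.90 to 5.73 FPKM.

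The kinase that shuts BCKDH off and the phosphatase that turns it on were ordered differently over the tissues. Bckdk (ENSMUSG00000030802, chr7:127904082-127910221) gave 43.9, 43.1 and 40.5 FPKM in CON muscle, 20.2, 19.7 and 19.6 in CON eWAT and 3.30 (CON14L), 8.66 (CON16L) and 1.86 (CON72L) in CON liver. The tissues were apart, and muscle exceeded liver 9.22-fold in the mean. The difference was 3.30 ± 0.40 on the log2 scale between muscle and liver (adjusted p = 7.59e-05), 2.23 ± 0.40 between eWAT and liver (adjusted p = 0.000628) and -1.08 ± 0.40 between eWAT and muscle (adjusted p = 0.0356). After median-ratio scaling muscle stayed above liver by 2.75 ± 0.37 (adjusted p = 0.00018) and eWAT below muscle at a log2 difference of -2.07 ± 0.37 (adjusted p = 0.00132), while eWAT and liver differed by 0.68 ± 0.37 (adjusted p = 0.143).

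The Bckdk value of CON16L was the highest of the 6 liver libraries. At the ratio of the muscle markers, 7.03% of the CON muscle mean would give 2.99 of its 8.66 FPKM and leave 5.67, still above the 1.86 to 4.59 of the other liver libraries. Without CON16L the difference between muscle and liver was 3.84 ± 0.19 (adjusted p = 2.94e-07) for Bckdk and 2.71 ± 0.15 (adjusted p = 5.14e-07) for Bckdha.

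Ppm1k (ENSMUSG00000037826, chr6:57506502-57535468) went the other way in liver. Its CON levels were 4.40 (CON14L), 8.60 (CON16L) and 7.35 (CON72L) FPKM in liver. In eWAT they were 4.33, 3.05 and 2.96, and in muscle 4.11, 5.79 and 3.85. It was lower in eWAT than in liver at a log2 difference of -0.85 ± 0.26 (adjusted p = 0.012), and at a log2 difference of -2.32 ± 0.23 (adjusted p = 2.98e-05) after median-ratio scaling. Muscle overlapped with liver, and the difference of -0.49 ± 0.26 (adjusted p = 0.115) became -1.10 ± 0.23 (adjusted p = 0.00239) after scaling. For eWAT against muscle it was -0.36 ± 0.26 (adjusted p = 0.226), and -1.22 ± 0.23 (adjusted p = 0.0017) after scaling.

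In each library the FPKM of Bckdk was divided by that of Ppm1k. The ratio was 0.750 (CON14L), 1.01 (CON16L) and 0.254 (CON72L) in CON liver, 4.67, 6.47 and 6.61 in CON eWAT and 10.7, 7.45 and 10.5 in CON muscle. The geometric means were 0.576, 5.85 and 9.42. No scaling between libraries enters this ratio, and the tissues did not overlap in either diet.

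In FPKM as deposited, the 3 genes of the leucine branch were highest in eWAT. Ivd (ENSMUSG00000027332, chr2:118861954-118882909) gave 59.9, 61.9 and 62.7 FPKM in CON eWAT, 34.5, 36.4 and 29.2 in CON muscle and 20.2, 24.7 and 20.6 in CON liver (CON14L, CON16L and CON72L). The difference between eWAT and liver of 1.48 ± 0.18 (adjusted p = 3.94e-05) was called, while those between eWAT and muscle, 0.88 ± 0.18 (adjusted p = 0.0016), and between muscle and liver, 0.60 ± 0.18 (adjusted p = 0.013), were under 2-fold. After median-ratio scaling all 3 were between -0.16 and -0.03, with adjusted p-values of 0.373, 0.468 and 0.884, so Ivd followed the median gene and its direction depended on the scale.

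Both subunits of methylcrotonyl-CoA carboxylase were higher in eWAT than elsewhere. Mccc1 (ENSMUSG00000027709, chr3:35959312-36000678), the biotin-carrying α subunit, gave 9.79, 9.99 and 10.4 FPKM in CON eWAT, 3.13, 3.04 and 3.10 in CON muscle and 0.946, 1.94 and 0.978 in CON liver. Mccc2 (ENSMUSG00000021646, chr13:99948530-100015639), the β subunit, gave 41.0, 41.5 and 41.7 FPKM in CON eWAT, 13.6, 14.0 and 12.3 in CON muscle and 5.15, 10.8 and 6.63 in CON liver, with CON16L highest of the liver libraries for both genes. Against liver, eWAT was higher by 2.60 ± 0.20 for Mccc1 (adjusted p = 1.90e-06) and by 2.45 ± 0.24 for Mccc2 (adjusted p = 1.02e-05). After median-ratio scaling these were 1.19 ± 0.18 (adjusted p = 0.000368) and 0.84 ± 0.20 (adjusted p = 0.00475). Against muscle, eWAT was higher by 1.55 ± 0.20 for Mccc1 (adjusted p = 8.09e-05) and by 1.60 ± 0.24 for Mccc2 (adjusted p = 0.000241), and by 0.61 ± 0.18 and 0.60 ± 0.20 after scaling (adjusted p = 0.0162 and 0.0248). Muscle was higher than liver in Mccc1 by 1.05 ± 0.20 (adjusted p = 0.00101), or 0.59 ± 0.18 after scaling (adjusted p = 0.0162). The exon union of Mccc1 is 10952 bases and that of Mccc2 2802, and a long union lowers the FPKM of a gene whose transcripts use part of it, so the ratio of Mccc2 to Mccc1 is no measure of subunit balance.

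In the valine branch Hibadh (ENSMUSG00000029776, chr6:52546228-52640389) was the member with the widest spread within CON liver, at 7.30 (CON14L), 38.7 (CON16L) and 35.7 (CON72L) FPKM. It gave 26.3, 24.6 and 23.9 in CON eWAT and 14.5, 14.3 and 14.6 in CON muscle. No difference between tissues was called as deposited, with adjusted p-values of 0.209 to 0.743. After median-ratio scaling eWAT was lower than liver at a log2 difference of -1.43 ± 0.50 (adjusted p = 0.0327), and without CON14L as deposited at a log2 difference of -0.57 ± 0.11 (adjusted p = 0.00145), against 0.19 ± 0.53 with it.

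Of the 10 members, 6 were called higher and 0 lower in eWAT than in liver, where 62.1% of the 12637 genes tested were called higher and 7.26% lower. Between eWAT and muscle 5 were called higher in eWAT and 1 (Bckdk) lower, against 46.9% and 7.98% of all genes. Between muscle and liver 3 were called higher in muscle and 1 (Bckdhb) lower, against 35.1% and 15%. The members' median differences were 1.75, 0.99 and 0.45 on the log2 scale, beside 1.36, 0.93 and 0.52 for all genes.

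After median-ratio scaling 2 members (Bckdha, Mccc1) were called higher and 3 (Dbt, Ppm1k, Hibadh) lower in eWAT than in liver, against 21.5% and 20.3% of all genes. Between eWAT and muscle 0 were called higher and 2 (Bckdk, Ppm1k) lower, against 20.1% and 18%. Between muscle and liver 2 (Bckdha, Bckdk) were called higher and 3 (Bckdhb, Dbt, Ppm1k) lower, against 24.5% and 22.8%.

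The HSD libraries gave another set of mice for the same tissue contrasts. There 6 members were called higher and 1 lower in eWAT than in liver, against 61.4% and 6.98% of 13255 genes, 5 higher and 1 lower in eWAT than in muscle, against 51.4% and 7.31%, and 2 higher and 3 lower in muscle than in liver, against 29% and 16.1%. Called in the same direction in both diets were 5 members for eWAT against liver, 6 for eWAT against muscle and 2 (Bckdha and Bckdk) for muscle against liver. The share of all genes called alike in both diets was not computed, so these counts do not set the members apart from other genes. Bckdk differed in the HSD libraries by 3.49 ± 0.22 between muscle and liver (adjusted p = 9.75e-07), and Ppm1k at a log2 difference of -1.73 ± 0.17 (adjusted p = 2.11e-05).

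**Figure D3:**
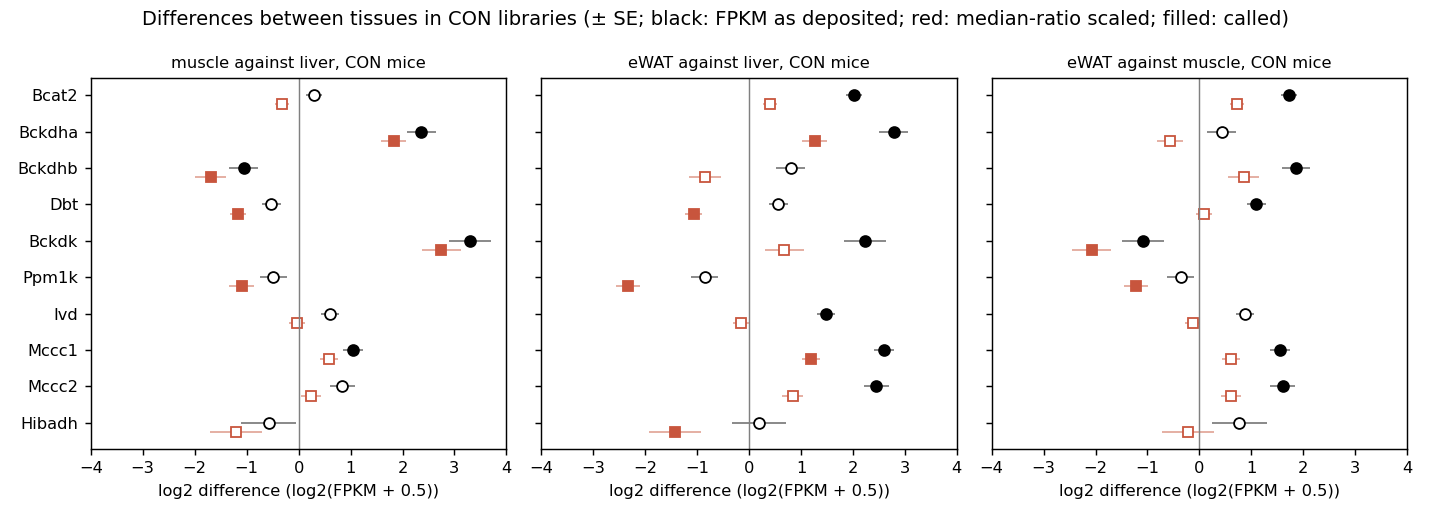
Log2 difference ± SE (on log2(FPKM + 0.5)) between tissues for the 10 genes in CON libraries, with black circles for FPKM as deposited, red squares for the same after median-ratio scaling, and filled symbols for called genes. Bckdk in muscle against liver lies at 3.30 and 2.75 and stays filled on both scales, whereas most members in eWAT against liver move left by about the 1.36 of the median gene.

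The diet was compared within each tissue, 3 HSD against 3 CON libraries, to ask which genes respond to 12 weeks of high salt. No member was called in any tissue with limma. In liver 0 of the 10 members and 0% of 10317 genes were called, in eWAT 0 members and 0% of 13740 genes, and in muscle 0 members and 0.323% of 10834 genes. At an unadjusted p under 0.05 there was 1 member in liver (Bckdha), 1 in eWAT (Mccc2) and 2 in muscle (Dbt and Ppm1k), against 5.74%, 16.7% and 16.3% of all genes, so that the members' shares were near the background. Voom on the recovered fragments also called 0 members in each tissue, beside 0% of 10103 genes in liver, 0% of 13431 in eWAT and 0.623% of 10594 in muscle. The sizes and intervals below show how far each value was determined.

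In muscle Ppm1k gave the largest difference of the 10. The libraries read 4.11 (CON16M), 5.79 (CON71M) and 3.85 (CON72M) FPKM under CON and 2.91 (HS2M), 2.61 (HS3M) and 2.62 (HS5M) under HSD. All 3 HSD libraries were below all 3 CON libraries, and the HSD mean of 2.71 ± 0.168 FPKM (SD, n = 3) was 0.592 of the CON mean of 4.58 ± 1.06 (SD, n = 3). The log2 difference was -0.64 ± 0.15 (SE; 95% interval -0.99 to -0.30), with an adjusted p of 0.0936. With the replicate number as a block the adjusted p was 0.0599.

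Dbt followed, at 15.7, 17.6 and 16.5 FPKM under CON and 12.5, 12.7 and 11.5 under HSD in muscle. The groups were apart, with a log2 difference of -0.42 ± 0.11 (95% interval -0.67 to -0.17; adjusted p = 0.111, or 0.07 with the block). At an adjusted p under 0.05 without a fold threshold 0 members passed in muscle, against 0.895% of all genes.

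Other members in muscle differed by less. Ivd read 34.5, 36.4 and 29.2 FPKM under CON and 28.5, 27.1 and 27.4 under HSD, a log2 difference of -0.26 ± 0.12 (adjusted p = 0.324). Bcat2 read 14.4, 14.3 and 13.8 under CON and 15.8, 16.3 and 20.0 under HSD, a difference of 0.28 ± 0.12 (adjusted p = 0.311). Bckdk differed at a log2 difference of -0.06 ± 0.11, with an interval of -0.30 to 0.19 on the log2 scale, and took the opposite sign, 0.03, after median-ratio scaling. In muscle 1 member (Bcat2) was apart above CON and 3 (Dbt, Ppm1k, Ivd) apart below, against 6.72% and 15.6% of all genes, and the members' median of -0.14 stood beside -0.06 for all genes. The macrophage markers summed to 56.7 to 91.0 FPKM in CON and 40.7 to 44.1 in HSD muscle, and their part in these values was not tested.

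The ratio of Bckdk to Ppm1k in muscle was 10.7 (CON16M), 7.45 (CON71M) and 10.5 (CON72M) under CON and 14.6 (HS2M), 15.5 (HS3M) and 15.1 (HS5M) under HSD. Every HSD library lay above every CON library, and the geometric means were 9.42 and 15.1, a 1.60-fold difference. The exact two-sided permutation test over the libraries gave p = 0.1, the smallest that 3 against 3 allows. In eWAT the ratio was 4.67, 6.47 and 6.61 under CON and 3.97 (HS2W), 4.96 (HS3W) and 4.54 (HS5W) under HSD, a log2 difference of -0.39 with p = 0.2 by the exact permutation test. In liver it was 0.254 to 1.01 under CON and 0.230 (HS2L), 0.235 (HS4L) and 0.551 (HS5L) under HSD, a log2 difference of -0.90 with p = 0.2 by the exact permutation test, and of -0.49 without CON16L.

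**Figure D4:**
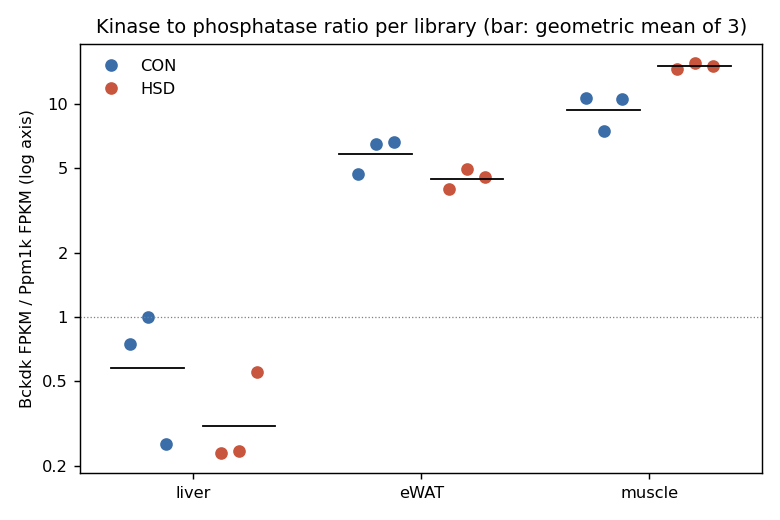
FPKM of Bckdk over FPKM of Ppm1k (log axis) in each library by tissue, with CON in blue, HSD in red and a bar at the geometric mean of 3. Liver lies at or near 1 and below, from 0.230 to 1.01, and in muscle the HSD libraries, 14.6 to 15.5, lie above the CON libraries, 7.45 to 10.7.

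In liver the spread between libraries of 1 diet was wide, and the macrophage markers did not overlap between the diets. They summed to 40.1 to 62.3 FPKM in CON and 22.1 to 35.8 in HSD liver, and the blood markers to 5626 FPKM in CON16L against 237 to 842 in the other liver libraries. Their part in the liver values was not tested. Bckdha read 1.93 (CON14L), 4.53 (CON16L) and 1.90 (CON72L) FPKM under CON and 5.10 (HS2L), 5.73 (HS4L) and 4.81 (HS5L) under HSD. The groups were apart, with an HSD mean 1.87-fold that of CON and a log2 difference of 0.89 ± 0.32 (95% interval 0.13 to 1.64; adjusted p = 0.764). It was 1.24 ± 0.27 without CON16L (adjusted p = 0.506), the library with skeletal muscle RNA, and 0.53 ± 0.39 when mitochondrially encoded genes were left out (adjusted p = 0.968).

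Ivd was the other member apart in liver, at 20.2, 24.7 and 20.6 FPKM under CON and 32.0, 27.8 and 26.7 under HSD, a log2 difference of 0.40 ± 0.28 (adjusted p = 0.764). With mitochondrially encoded genes left out it was -0.02 ± 0.38. Ppm1k read 4.40, 8.60 and 7.35 FPKM under CON and 12.1, 10.4 and 8.33 under HSD, with overlap, at 0.60 ± 0.32 (adjusted p = 0.764). It was 0.21 ± 0.31 with mitochondrially encoded genes left out (adjusted p = 0.968). In liver 2 members were apart above CON and 0 below, against 8.62% and 3.47% of all genes, and the members' median of 0.27 stood beside 0.13 for all genes. With mitochondrially encoded genes left out the members' median was -0.09, and 4 of the 10 differences were positive.

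Hibadh and Bckdhb varied within liver in opposite order. By falling share of fragments from mitochondrially encoded genes, which was 60.9% in CON14L, 44.4% in HS5L, 37.9% in CON72L, 25.7% in CON16L, 16.3% in HS2L and 15.4% in HS4L, Hibadh read 7.30, 18.5, 35.7, 38.7, 39.2 and 42.6 FPKM. Bckdhb in the same order read 52.8, 51.5, 29.9, 25.2, 29.9 and 17.7 FPKM. Hibadh was thus higher at each step, while Bckdhb was highest in the first 2 libraries and lowest in the last, over libraries of both diets. Bcat2 was highest in HS5L, at 18.9 FPKM, and lowest in HS4L, at 6.15. Across 10309 genes the deviation of a library from the liver mean had a correlation with GC content of 0.158 in HS5L and -0.180 in HS4L. It was 0.034 in CON14L, 0.036 in CON16L, 0.015 in CON72L and -0.066 in HS2L. GC content was taken from the longest transcript of a gene, which holds 39.5% GC for Hibadh, 50.3% for Bckdhb and 54.3% for Bcat2. The total that FPKM divides by includes the mitochondrially encoded fragments, so by arithmetic a larger share leaves less for all other genes together. How large a part this and GC content had in the values of single genes was not tested.

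In eWAT the HSD values rested on whether HS3W, the library with epididymal RNA, was included. Bckdhb read 55.7, 60.9 and 63.0 FPKM under CON and 81.5 (HS2W), 38.3 (HS3W) and 86.2 (HS5W) under HSD, so that HS3W was below and the other two above every CON library. The log2 difference was 0.11 ± 0.32 (adjusted p = 0.858) over all 6 libraries and 0.48 ± 0.08 (adjusted p = 0.0317) without HS3W, where 3.67% of 13245 genes passed an adjusted p under 0.05 upward and Bckdhb was the single member that did.

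Bcat2 showed the same split, with 52.3, 45.3 and 46.7 FPKM under CON and 51.7 (HS2W), 24.5 (HS3W) and 69.8 (HS5W) under HSD. Its difference of -0.11 ± 0.38 turned to 0.32 ± 0.14 without HS3W (adjusted p = 0.209). Set against the mean of HS2W and HS5W, HS3W held 40.4% of Bcat2, 45.7% of Bckdhb, 48.8% of Dbt, 52.3% of Mccc1, 55.8% of Ivd, 61.0% of Hibadh, 68.0% of Bckdha and 71.2% of Mccc2. The regulators stood higher, at 84.6% for Ppm1k and 98.6% for Bckdk. The adipocyte markers of HS3W stood at 31.7%.

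Mccc2 was apart in eWAT also with HS3W, at 41.0, 41.5 and 41.7 FPKM under CON and 32.0, 24.7 and 37.4 under HSD. The log2 difference was -0.41 ± 0.16 (95% interval -0.81 to -0.02; adjusted p = 0.283), and -0.26 ± 0.08 without HS3W (adjusted p = 0.121). Bckdha was the other, at 20.8, 21.0 and 20.7 FPKM under CON and 17.1, 12.7 and 20.2 under HSD, a difference of -0.34 ± 0.17 (adjusted p = 0.373). In eWAT 0 members were apart above CON and 2 below, against 16.2% and 12.4% of all genes, and the members' median of -0.19 stood beside 0.08 for all genes. Without HS3W the members' median was 0.03.

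**Figure D5:**
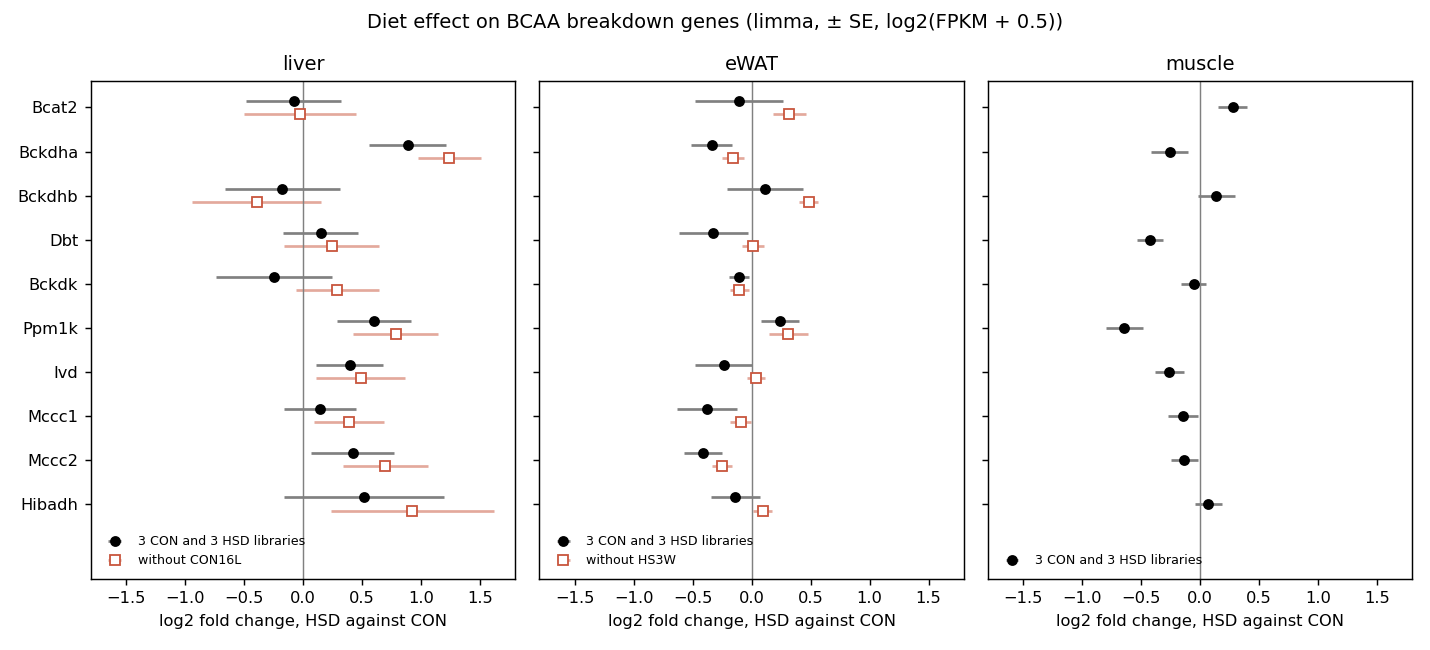
Log2 fold change ± SE of HSD against CON for the 10 genes in liver, eWAT and muscle (limma on log2(FPKM + 0.5)), with black circles for all 6 libraries and red squares without CON16L (liver) or HS3W (eWAT). Without HS3W the SE of Bckdhb in eWAT falls from 0.32 to 0.08 and its change moves from 0.11 to 0.48.

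Whether the diet effect differed between tissues was tested as an interaction over the 18 libraries, and no member was called with limma. For eWAT minus liver 0 members and 0.758% of 13067 genes were called, for eWAT minus muscle 0 members and 0% of genes, and for liver minus muscle 0 members and 0.0612% of genes. At an unadjusted p under 0.05 there were 2, 1 and 3 members, against 13.7%, 8% and 7.95% of all genes. Voom on the recovered fragments called 0 members in each, beside 0.0861%, 0% and 0.0156% of 12781 genes. The largest differences were those of Ppm1k between liver and muscle, 1.24 ± 0.31 (adjusted p = 0.273), and of Bckdha between eWAT and liver, -1.22 ± 0.36 (adjusted p = 0.155), and between liver and muscle, 1.14 ± 0.36 (adjusted p = 0.372). Without CON16L Bckdha was called in both, at a log2 difference of -1.57 ± 0.27 (adjusted p = 0.0123) and 1.50 ± 0.27 (adjusted p = 0.0373). In that fit 1.81% and 0.213% of 13117 genes were called.

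The other enzymes of BCAA breakdown were taken as a list of 18 genes, of which 17 were tested between tissues. In CON mice 11 were called higher and 0 lower in eWAT than in liver, against 62.1% and 7.26% of all genes. Between muscle and liver 9 were called higher in muscle and 0 lower, against 35.1% and 15%. Between eWAT and muscle 4 were called higher in eWAT and 0 lower, against 46.9% and 7.98%. Dld, the E3 subunit of BCKDH and of the other keto acid dehydrogenases, was higher in muscle than in liver by 3.16 ± 0.35 (adjusted p = 4.20e-05). Pcca and Pccb, the subunits of propionyl-CoA carboxylase, on which isoleucine and valine converge, were higher in muscle than in liver by 1.90 ± 0.36 and 1.65 ± 0.28 (adjusted p = 0.00112 and 0.000621). Aldh6a1, methylmalonate semialdehyde dehydrogenase of the valine branch, was higher in eWAT than in muscle by 1.66 ± 0.28 (adjusted p = 0.000466). The list's median differences were 1.31 in eWAT against liver, 1.00 in muscle against liver and 0.74 in eWAT against muscle, beside the medians of all genes of 1.36, 0.52 and 0.93. After median-ratio scaling 4 were called higher and 3 lower in eWAT than in liver, against 21.5% and 20.3% of all genes. In muscle against liver 4 were called higher and 2 lower, against 24.5% and 22.8%. In eWAT against muscle 0 were called higher and 2 lower, against 20.1% and 18%. Scaling left Dld at 2.55 ± 0.30 and Pcca and Pccb at 1.35 ± 0.35 and 1.04 ± 0.24 in muscle against liver. Aldh6a1 was then at 0.65 ± 0.23 in eWAT against muscle.

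The carriers and regulators of BCAA use were a list of 11 genes. In eWAT against liver 7 were called higher and 0 lower, against 62.1% and 7.26% of all genes. In eWAT against muscle 5 were called higher and 1 lower, against 46.9% and 7.98%. In muscle against liver 5 were called higher and 1 lower, against 35.1% and 15%. Slc7a8, a carrier of large neutral amino acids, was higher in eWAT than in liver by 3.64 ± 0.18 (adjusted p = 2.16e-07). Slc25a44, the mitochondrial BCAA carrier, was higher in eWAT than in muscle by 1.06 ± 0.22 (adjusted p = 0.00191), but by 0.07 ± 0.21 after median-ratio scaling. Ppargc1a, a coactivator of mitochondrial genes, was higher in muscle than in liver by 2.20 ± 0.25 (adjusted p = 5.29e-05), and Klf15, a transcription factor that acts on amino acid breakdown, lower at a log2 difference of -1.32 ± 0.20 (adjusted p = 0.00031). Scaling left Slc7a8 at 2.45 ± 0.20, Ppargc1a at 1.77 ± 0.27 and Klf15 at -1.95 ± 0.17 in the same contrasts. Over the list it gave 5 higher and 2 lower in eWAT than in liver, against 21.5% and 20.3% of all genes. For muscle against liver it gave 5 and 1, against 24.5% and 22.8%, and for eWAT against muscle 2 and 3, against 20.1% and 18%.

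Pyruvate dehydrogenase and the citrate cycle, a list of 24 genes of the neighbouring mitochondrial pathway, were ordered differently from BCAA breakdown. Between eWAT and muscle 9 of them were called lower and 2 higher in eWAT, against 7.98% and 46.9% of all genes. The list median was -0.99, while the BCAA members' median was 0.99 and that of all genes 0.93. After median-ratio scaling 21 were called lower and 1 higher, against 18% and 20.1% of all genes. The list median was then -1.99, beside -0.02 for the members. Between muscle and liver 21 were called higher in muscle and 1 lower, against 35.1% and 15% of all genes, with a list median of 2.78. Between eWAT and liver 18 were called higher in eWAT and 0 lower, against 62.1% and 7.26%, with a median of 1.79. For muscle against liver scaling gave 18 higher and 2 lower, against 24.5% and 22.8%, with a median of 2.16. For eWAT against liver it gave 2 higher and 5 lower, against 21.5% and 20.3%, with a median of 0.22. Pdp1, which dephosphorylates pyruvate dehydrogenase as PPM1K does BCKDH, was higher in muscle than in liver by 4.60 ± 0.44 (adjusted p = 1.66e-05). Ppm1k differed at a log2 difference of -0.49 ± 0.26. Pdp2, the other pyruvate dehydrogenase phosphatase of the list, went the opposite way to Pdp1. It read 0.994, 1.28 and 0.974 FPKM in CON muscle and 4.81, 3.19 and 2.96 in CON liver. After scaling muscle differed from liver by 4.34 ± 0.51 for Pdp1, -1.98 ± 0.22 for Pdp2 and -1.10 ± 0.23 for Ppm1k.

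For the diet, none of these lists held a called gene with limma in any tissue, but with the replicate number as a block 1 gene was called in muscle. It was Pdk4, a kinase that shuts pyruvate dehydrogenase off, at 72.0 (CON16M), 50.5 (CON71M) and 29.7 (CON72M) FPKM under CON and 243 (HS2M), 221 (HS3M) and 81.9 (HS5M) under HSD. All 3 HSD libraries lay above all 3 CON libraries. The log2 difference was 1.77 ± 0.41 without the block (adjusted p = 0.0873) and 1.77 ± 0.13 with it (adjusted p = 0.00219), and voom on the recovered fragments called it at 1.78 ± 0.38 (adjusted p = 0.0459). The labels name no shared batch for a replicate number, and the block rests on a pairing of libraries seen in these same data. At an unadjusted p under 0.05 there were 1, 2 and 1 of the other BCAA enzymes in liver, eWAT and muscle, 2, 1 and 2 of the carriers and regulators, and 0, 4 and 7 of the pyruvate dehydrogenase and citrate cycle genes, beside the 5.74%, 16.7% and 16.3% of all genes. Pdp1 was the 1 gene of the lists that passed an adjusted p under 0.05 without the block, in muscle, lower under HSD at a log2 difference of -0.89 ± 0.13 (adjusted p = 0.0227), just short of 2-fold. Without HS3W in eWAT, Hsd17b10 of the isoleucine branch was higher by 0.44 ± 0.09 (adjusted p = 0.0436), and Pcca and Mmut of the propionate route lower at a log2 difference of -0.38 ± 0.08 and -0.37 ± 0.08 (adjusted p = 0.0424 and 0.0454). Ppargc1a was higher by 0.86 ± 0.14 (adjusted p = 0.031), Pdk2, another pyruvate dehydrogenase kinase, higher by 0.80 ± 0.16 (adjusted p = 0.0427) and Pdha1, the E1α subunit of pyruvate dehydrogenase, lower at a log2 difference of -0.48 ± 0.07 (adjusted p = 0.0265). These 6 were all under 2-fold, and 3.67% of all genes passed upward and 3.76% downward without HS3W.

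The members varied together to differing degrees. Each member's log2 level was compared with the mean of the other 9 over the 18 libraries, as a description, since the libraries share tissues and mice. Pearson's r was 0.96 for Ivd, 0.93 for Mccc2, 0.89 for Mccc1 and 0.82 for Bcat2, against 0.11 for Bckdk and -0.35 for Ppm1k. After each tissue was centred on its own mean r was 0.89 for Ivd and 0.78 for Bckdha, Mccc1 and Mccc2, and -0.10 for Bckdhb. Among 13057 other genes, the pattern most like the members' mean over the 18 libraries was that of Chpt1 (r = 0.97), followed by Mapk3, Spry4, Dhrs7 and Palmd (r = 0.96 each). With tissues centred, Spry4, Aifm2 and Acadm (r = 0.90 each), Abcd2 (r = 0.89) and Septin10 (r = 0.88) were closest.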

How the data were processed

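RNA from liver, eWAT and quadriceps of CON and HSD mice was sequenced as 18 libraries. According to the study's methods, reads were trimmed with cutadapt and aligned with hisat2 to mm10, and the authors computed the deposited FPKM values with cuffdiff from an Ensembl annotation; the submitters' processing notes also list HTSeq 0.9.1 and mm9. Counts were not used here as deposited values. For 18347 of the 18822 genes above 0 (97.5%) every FPKM equalled a whole number of fragments, within 0.02 fragments, at the GENCODE M21 exon length, which gave the library totals.

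Samples were grouped by the labels. Genes whose FPKM averaged 0.5 or more in the libraries of a fit were tested with limma 3.58.1 (R 4.3.3) on log2(FPKM + 0.5), with Benjamini-Hochberg adjustment over all genes tested, so that a fold change understates that of low genes. The fits were HSD against CON within each tissue, the 3 tissue contrasts over the 9 CON libraries, and the diet effect between tissues over all 18. A gene was called at an adjusted p under 0.05 and a fold of at least 2, as in the study. Nothing states that the replicates came from separate cages or litters, so p-values measure the spread between these mice. Ratios of Bckdk to Ppm1k were compared with an exact two-sided permutation test (scipy 1.17.1). The scripts were tested on simulated data. Of the pairs of libraries within a group the closest, CON72M and CON16M, had r = 0.99 on log2(FPKM + 0.5) over 13067 genes.

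The 10 members and the gene lists were chosen with earlier results of these data known. Named genes were all members and, per list and contrast, the called genes with the largest change, of which examples are given; Pdp1 and Pdk4 in the diet comparison and the genes passing without HS3W were named after their values were seen. In muscle, libraries with the same replicate number deviated together (r = 0.383, 0.177 and 0.184 over 10834 genes), which makes the replicate number a block by rule though the labels name no shared batch; in liver (r = -0.473, 0.395 and -0.213) and eWAT (r = -0.197, 0.0608 and 0.414) they did not. Mice that gave several tissues had a consensus correlation of 0.071 in the CON fit and 0.022 over all 18 libraries. Gene positions are from GENCODE M21 (GRCm38) and promoter sequences from RefSeq (GRCm38.p6).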

Additional observations from a re-analysis of the deposited data

How the results depend on the processing

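No diet difference of a member was called under any pseudocount, filter, scaling or left-out library, and 17 of the 30 diet differences and 20 of the 30 tissue differences kept their sign under every alternative tried; voom on the recovered fragments was chosen after seeing the data. With limma's arrayWeights 1 member (Bckdha) was called in liver, where 926 of 10317 genes were called. Between muscle and liver 2 members were called with mitochondrially encoded genes left out, beside 48.8% of all genes, and 7 passed the adjusted p alone, beside 72.4% of all genes, against 4 called. Between eWAT and muscle 2 members were called after median-ratio scaling, against 6: Bckdk, called on both scales, and Ppm1k, called after scaling alone. For the diet effect in eWAT minus that in liver and for liver minus muscle, 0 to 1 members were called when 1 library was left out. The 1 was Bckdha without CON16L, where 1.81% and 0.213% of all genes were called. With the 15 libraries the study kept (without CON16L, HS5L and HS5W) 3 members were called in each, where 18.7% and 9.78% of all genes were called. The cause of these shifts was not tested. The fit with the replicate number as a block called 0 members in each tissue. In muscle it called 54 genes in all, against 35, among them Pdk4, and it changed no other call of a named gene.

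Signs turned as follows. When 1 library was left out, the HSD difference in liver ranged from -0.47 to 0.30 for Bcat2, -0.56 to 0.20 for Bckdhb, -0.69 to 0.29 for Bckdk and -0.24 to 0.93 for Hibadh. In eWAT it ranged from -0.43 to 0.32 for Bcat2, -0.10 to 0.48 for Bckdhb, -0.52 to 0.014 for Dbt, -0.42 to 0.039 for Ivd and -0.29 to 0.093 for Hibadh, each highest without HS3W. With mitochondrially encoded genes left out, liver gave -0.26 for Dbt, -0.017 for Ivd and -0.17 for Mccc1. With arrayWeights, Bckdk was 0.40 in liver and Bcat2 0.24 and Hibadh 0.066 in eWAT. With the study's libraries alone, Bckdk was 0.054 in liver and Bckdhb -0.10 in eWAT. Median-ratio scaling gave 0.031 for Bckdk in muscle. Between tissues that scaling gave, for muscle against liver, -0.32 (Bcat2) and -0.027 (Ivd), for eWAT against liver, -0.84 (Bckdhb), -1.07 (Dbt), -0.16 (Ivd) and -1.43 (Hibadh), and for eWAT against muscle, -0.56 (Bckdha), -0.13 (Ivd) and -0.23 (Hibadh). The HSD libraries in place of CON gave -0.053 for Ivd in muscle against liver, -0.47 for Hibadh in eWAT against liver and 0.52 for Ppm1k in eWAT against muscle. Hibadh in eWAT against liver ranged from -0.57 to 0.60 when 1 library was left out.

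Liver depth limits the lowest members: Bckdha rested on 28 fragments in CON14L and Bckdk on 63 in CON72L. With 3 libraries a group, an exact permutation test cannot go below 0.1.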
